A study of Mus musculus with 8 samples.

Results

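The genes described here carry glucose into the cell, turn its last glycolytic intermediate into pyruvate, and send pyruvate either to lactate and out of the cell or into the mitochondrion. They are 10 mouse genes taken by symbol: Slc2a1, Slc2a3, Slc16a1, Slc16a3, Pkm, Ldha, Ldhb, Pdha1, Mpc1 and Mpc2. A count was analysed for 9 of them among the 13588 genes of the count table, and all 9 passed the filter on low counts. Ldhb was followed in the transcript-level values only. RNA was sequenced from BaF3 cells, a mouse cell line described by its labels as derived from pro-B cells, carrying Jak2 V617F, a change that activates the Jak2 kinase. All 8 libraries share that background and a medium that contains sodium pyruvate besides serum. The 4 control libraries express the hairpin shNT, and the 4 knockdown libraries express a hairpin against Ybx1, which encodes an RNA- and DNA-binding cold shock protein: sh1Ybx1 in 2 libraries and sh2Ybx1 in 2 others. The labels do not say whether the libraries of a group came from separate cultures, so p-values here reflect spread that may be technical.

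Glucose enters most cells through facilitative carriers of the Slc2a family and is broken down to phosphoenolpyruvate, from which pyruvate kinase makes pyruvate and ATP. Lactate dehydrogenase reduces pyruvate to lactate and so restores NAD+, and proton-coupled carriers of the Slc16a family move lactate and pyruvate across the plasma membrane. Pyruvate that is to be oxidised passes the mitochondrial pyruvate carrier, a complex of Mpc1 and Mpc2, and is made into acetyl-CoA by the pyruvate dehydrogenase complex. Fast-growing blood and tumour cells often send much of their glucose to lactate even with oxygen present.

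Total counts ran from 22779437 to 37549926 per library. The targeted gene Ybx1 was at 1607 to 1731 CPM (a gene's count relative to its library's TMM-scaled total) in shNT, 130 and 143 CPM in sh1Ybx1 and 178 and 217 CPM in sh2Ybx1, without overlap. The control library shNT replicate 4 stood apart from the other shNT libraries on the second principal component, which held 25.36% of the variance, and had a TMM factor of 0.8466 against 0.9932 to 1.065 elsewhere. Of 9 B lymphoid marker genes 3 were in the count fit (Cd79a, Cd79b, Ptprc), while Ebf1, Igll1 and Cd22 were listed at 0 TPM (transcript abundance corrected for length) in all 8 libraries, so these defining markers of the B lineage gave no signal. Summed B lymphoid markers were at 153 to 237 CPM in shNT, 392 to 490 in sh1Ybx1 and 236 to 254 in sh2Ybx1. Summed myeloid markers, of which 9 of 10 were in the fit, were at 247 to 548, 738 to 896 and 275 to 279 CPM in the same groups. Mast cell markers, 3 of 7 in the fit (Cpa3, Hpgds, Gata2), summed to 847 to 1241 CPM in shNT against 604 to 627 and 476 to 497 with the hairpins. Their sum was lower in every knockdown library, as were the glucose carriers and lactate-making enzymes below. Of these 3 genes 1 was called lower and 2 were called higher, so the sum does not describe each gene. Kit, Mcpt8 and Tpsb2 were listed at 0 TPM throughout. Of 6 fibroblast markers 2 were in the fit (Acta2, Timp1), at a sum of 2.26 to 5.33 CPM in shNT, 83.2 to 102 in sh1Ybx1 and 3.48 to 3.92 in sh2Ybx1. The collagens Col1a1, Col1a2 and Col3a1 were listed at 0 TPM, and so were Pdgfra and Timp1. Since Timp1 has counts, a listed 0 TPM need not mean that a gene is absent. Erythroid and megakaryocyte markers (9 of 10 in the fit) overlapped between groups, at 4338 to 5274, 4023 to 4622 and 4773 to 5285 CPM. Nkg7, the 1 of 6 T and NK markers in the fit, was at 3.02 to 10.6, 0.383 to 0.627 and 6.96 to 8.29 CPM. The part of these markers in the results below was not tested.

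Over the 4 knockdown libraries of both hairpins, the carriers that bring glucose in and the enzymes that make pyruvate and lactate fell, and the mitochondrial pyruvate carrier rose. For both hairpins together against shNT, edgeR called 5 of the 9 tested genes lower (Slc2a1, Slc2a3, Pkm, Ldha, Pdha1) and 2 higher (Mpc1, Mpc2) at an adjusted p under 0.05. The background was high, since 14.2% of all 13552 tested genes were called lower, 14.8% higher and 28.9% in either direction. Every knockdown library lay below every shNT library for the same 5 genes and above for the same 2, as it did for 15.0% and 16.6% of all genes. The median log2 fold change was -0.85 over the 9 genes and -0.004 over all genes tested. In bulk RNA, fewer transcripts per cell and fewer cells that express a gene cannot be told apart.

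**Figure D1:**
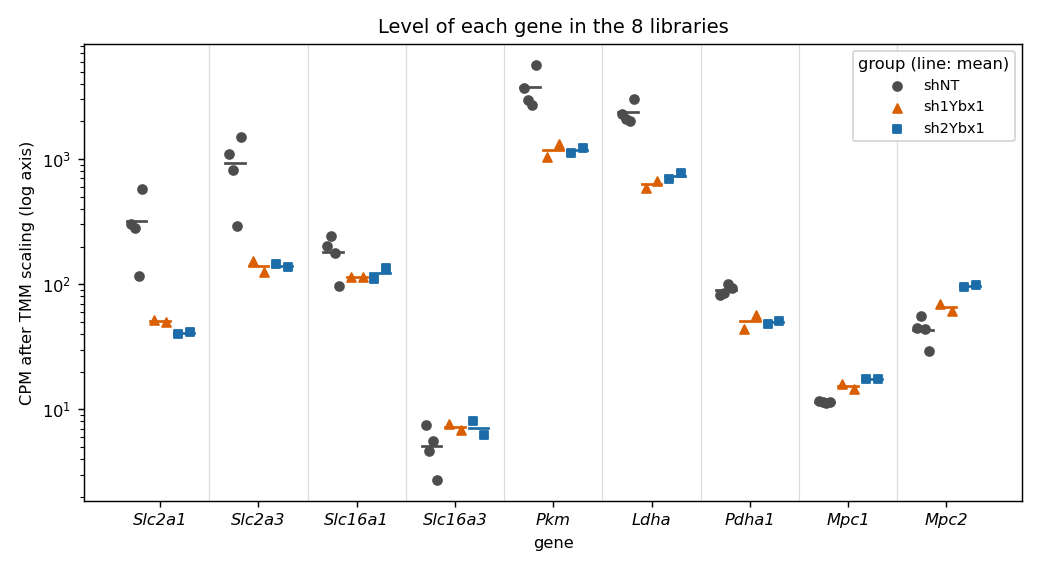
CPM on a log axis for the 9 tested genes in each of the 8 libraries, with points for libraries and short lines for group means (shNT grey circles, sh1Ybx1 orange triangles, sh2Ybx1 blue squares). Knockdown points of Slc2a1, Slc2a3, Pkm, Ldha and Pdha1 lie below every shNT point, those of Mpc1 and Mpc2 above, and those of Slc16a1 and Slc16a3 overlap shNT.

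Slc2a1 (ENSMUSG00000028645, chr4:119108711-119137983, plus strand, GRCm38) encodes GLUT1, the widespread carrier for basal glucose uptake. Its level was 303, 279, 117 and 575 CPM in shNT replicates 1 to 4, 51.8 and 49.5 CPM in sh1Ybx1 and 40.2 and 41.5 CPM in sh2Ybx1. Controls spread 4.91-fold from lowest to highest, yet the lowest of them stayed above all 4 knockdown libraries. The mean fell from 318 ± 190 to 45.7 ± 5.75 CPM (SD, n = 4 libraries each), a log2 fold change of -2.81 (SE 0.425, edgeR adjusted p 0.00401). The antisense gene Gm12867 overlaps Slc2a1 and is also counted. Whether the counting used strand is not stated here, and reads of the pair may be mixed.

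Slc2a3 (ENSMUSG00000003153, chr6:122727809-122801640, minus strand) encodes GLUT3, a carrier with high affinity for glucose that is abundant in neurons and in several blood cell types. It was at 1106, 822, 293 and 1498 CPM in shNT, 152 and 125 in sh1Ybx1 and 145 and 137 in sh2Ybx1. As for Slc2a1, shNT replicate 3 was the lowest control and replicate 4 the highest, and no knockdown library reached the lowest control. The mean fell from 930 ± 507 to 140 ± 11.8 CPM (log2 fold change -2.73, SE 0.440, adjusted p 0.00492). Without shNT replicate 4 the log2 fold changes were -2.38 for Slc2a1 and -2.43 for Slc2a3.

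Among pairs of the 9 genes, the 2 glucose carriers followed each other closely. How near genes outside the 9 lie to these carriers is not given here. The root mean square difference of their centred log2(CPM + 1) values over the 8 libraries was 0.204, against 0.179 for Pkm and Ldha, the closest pair among the 9 genes, and up to 1.90 for Slc2a1 and Mpc2. Per transcript length, however, their ratio differed by hairpin: the Slc2a3 to Slc2a1 TPM ratio was 1.34 to 2.02 in shNT, 0.895 and 1.13 in sh1Ybx1 and 2.47 and 4.0 in the sh2Ybx1 libraries. No test of the ratio was made. The counts gave no call between the hairpins: the log2 fold change of sh1Ybx1 against sh2Ybx1 was 0.31 for Slc2a1 (SE 0.566, edgeR adjusted p 0.862) and -0.027 for Slc2a3 (SE 0.585, adjusted p 0.991). The coding transcript ENSMUST00000134105 of Slc2a1 carried part of the gap, at 16.2 and 9.16 TPM in sh1Ybx1 against 0.750 and 0 TPM in sh2Ybx1, and at 12.9 to 50.3 TPM in shNT. Its difference between hairpins on the log2(TPM + 1) scale was 3.32 (SE 0.683) and did not pass the limma test (adjusted p 0.268).

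Pkm (ENSMUSG00000032294, chr9:59656368-59679375, plus strand) encodes the muscle-type pyruvate kinase, which makes pyruvate in the last step of glycolysis. It was at 3717, 2963, 2681 and 5675 CPM in shNT, 1036 and 1312 in sh1Ybx1 and 1124 and 1227 in sh2Ybx1. All 4 knockdown libraries lay within 1036 to 1312 CPM, under the lowest control. The mean fell 3.20-fold, from 3759 ± 1350 to 1175 ± 120 CPM (log2 fold change -1.68, SE 0.256, edgeR adjusted p 0.00411), and the fall was -1.44 without shNT replicate 4.

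Pkm is spliced with either of 2 alternative exons. Pkm-202 contains the upstream one, which makes the constitutively active M1 enzyme of muscle and brain, and Pkm-201 contains the downstream one, which makes the M2 enzyme typical of dividing cells, whose activity is regulated. Both are the ninth of 11 exons, 167 bases long, at chr9:59675029-59675195 (M1) and chr9:59675568-59675734 (M2) in GRCm38. They are shown because they are the stretch by which reads separate the forms. Capitals mark the 64 positions that differ between them, which leaves 61.7% of the bases identical.
M1 exon (Pkm-202): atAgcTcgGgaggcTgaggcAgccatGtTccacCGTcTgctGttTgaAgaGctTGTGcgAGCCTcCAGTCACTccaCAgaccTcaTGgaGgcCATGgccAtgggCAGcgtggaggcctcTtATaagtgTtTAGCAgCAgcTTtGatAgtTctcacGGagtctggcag
M2 exon (Pkm-201): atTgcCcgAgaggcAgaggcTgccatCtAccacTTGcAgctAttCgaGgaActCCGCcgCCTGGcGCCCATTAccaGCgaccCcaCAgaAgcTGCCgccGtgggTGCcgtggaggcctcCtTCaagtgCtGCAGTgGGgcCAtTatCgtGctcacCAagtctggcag
The transcripts share 8 of 11 exons exactly and also differ in the length of the first exon (282 bases in Pkm-201, 77 in Pkm-202) and the last (648 and 462), so the estimated split rests on these ends as well as on the alternative exon.

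The M2-containing Pkm-201 was the main form in every library and fell with knockdown. It was at 1686, 1264, 1333 and 1852 TPM in shNT, 387 and 558 in sh1Ybx1 and 355 and 456 in sh2Ybx1. On the log2(TPM + 1) scale the change was -1.81 (SE 0.191), with a limma adjusted p of 0.0217 over 35860 transcripts. In that comparison 0.284% of transcripts were called and 0.220% were called lower. The call rests on each control: the adjusted p was 0.139 without shNT replicate 1, 0.0835 without replicate 2, 0.0838 without replicate 3 and 0.0547 without replicate 4, with log2 changes of -1.75, -1.89, -1.87 and -1.71.

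The M1-containing Pkm-202 was at 297, 236, 234 and 658 TPM in shNT, 100 and 120 in sh1Ybx1 and 182 and 144 in sh2Ybx1. All knockdown values were below all controls, and replicate 4 held far the highest. The change of -1.27 (SE 0.337) did not pass the test (adjusted p 0.188). Of the other 9 annotated Pkm transcripts, 8 were above 0 in some library, and those tested did not pass either.

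As a share of summed Pkm TPM, Pkm-201 made up 82.1, 81.4, 82.9 and 71.8% in shNT, 73.6 and 79.1% in sh1Ybx1 and 62.2 and 70.1% in sh2Ybx1. Groups overlapped through shNT replicate 4. The mean share was 79.5 ± 5.18% in shNT and 71.3 ± 7.06% in knockdown, a difference of -8.28 percentage points (exact permutation test over 70 arrangements, two-sided p 0.0857, n = 4 against 4, smallest possible p 0.0286). Pkm-202 made up 17.4 ± 5.41% in shNT, 18.1 ± 1.48% in sh1Ybx1 and 27.0 ± 6.92% in sh2Ybx1, and the knockdown mean lay 5.11 points above shNT (exact p 0.286). Pkm-201 and Pkm-202 together made up 97.0 ± 0.483% in shNT and 93.8 ± 1.72% in knockdown (exact p 0.0286, not adjusted for the several shares tested). Part of the fall in the Pkm-201 share thus lay with other Pkm transcripts. Within Pkm-201 plus Pkm-202, Pkm-201 made up 82.0 ± 5.52% in shNT and 75.9 ± 7.04% in knockdown (exact p 0.229). A shift between the exons was therefore not shown by these estimates.

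**Figure D2:**
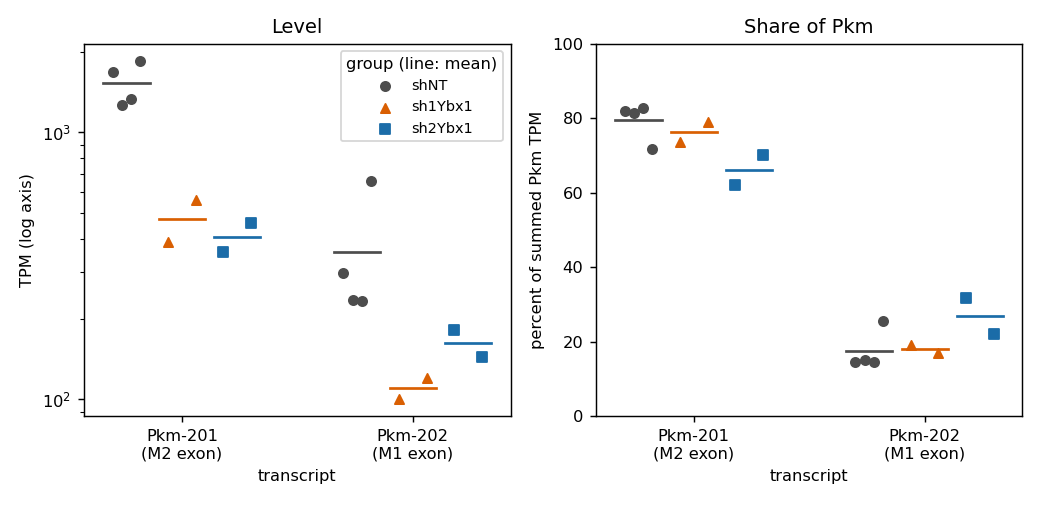
TPM on a log axis (left) and percent of summed Pkm TPM (right) of Pkm-201 and Pkm-202 in each library, with lines at group means. Pkm-201 falls from 1264 to 1852 TPM in shNT to 355 to 558 TPM in knockdown, while its share in shNT replicate 4 (71.8%) lies among the knockdown values.

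The authors' deposited splicing table lists 38 events in Pkm, with differences in percent spliced in from -0.017 to 0.064 as fractions. The file does not state which group was subtracted from which. The event at chr9:59672073-59675029, which ends where the M1 exon starts, had the value 0.064 (authors' p 0.398), and the lowest p in Pkm was 0.108. Over the 6 members that have events there, 0 of 71 events had an authors' p under 0.05, where 7.15% of all 26983 events did.

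Ldha (ENSMUSG00000063229, chr7:46841475-46855627, plus strand) encodes the A subunit of lactate dehydrogenase, whose tetramers favour making lactate. It was at 2310, 2110, 2014 and 3047 CPM in shNT, 585 and 669 in sh1Ybx1 and 695 and 777 in sh2Ybx1. Even the highest knockdown library had well under the lowest control's level. The mean fell 3.49-fold, from 2370 ± 468 to 681 ± 79.2 CPM (log2 fold change -1.80, SE 0.175, edgeR adjusted p 0.00124), the smallest adjusted p among the 9 genes. Nearly all of it was Ldha-202, at 1539 to 1940 TPM in shNT and 391 to 513 TPM in knockdown (log2 change -1.93, SE 0.135, limma adjusted p 0.00568). Ldhb (ENSMUSG00000030246), which encodes the B subunit more typical of heart, was listed at 0 TPM in all 8 libraries. Such a 0 can be a failed estimate, because 287 of 13548 genes that have counts are also listed at 0 TPM throughout.

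The lactate carriers did not pass the test. Slc16a1 (ENSMUSG00000032902, chr3:104638668-104658462, plus strand) encodes MCT1, the widespread lactate and pyruvate carrier. It was at 201, 244, 177 and 95.9 CPM in shNT, 114 and 114 in sh1Ybx1 and 110 and 134 in sh2Ybx1. Here shNT replicate 4, the highest control for the genes above, was the lowest and lay under the knockdown libraries. The log2 fold change was -0.61 (SE 0.260, p 0.0465, edgeR adjusted p 0.112). Without that library it was -0.84 (adjusted p 9.56e-04), so the call depends on it.

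Slc16a3 (ENSMUSG00000025161, chr11:120948480-120960868, plus strand) encodes MCT4, a carrier suited to lactate export from glycolytic cells. It was at 7.54, 4.64, 5.57 and 2.72 CPM in shNT, 7.66 and 6.81 in sh1Ybx1 and 8.0 and 6.18 in sh2Ybx1. Groups overlapped, and the log2 fold change was 0.48 (SE 0.294, adjusted p 0.248). Its mean of 1.35 ± 0.889 TPM in shNT was far under the 39.1 ± 15.4 TPM of Slc16a1.

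Both subunits of the mitochondrial pyruvate carrier rose. Mpc1 (ENSMUSG00000023861, chr17:8282904-8297661, plus strand) was at 11.6, 11.4, 11.2 and 11.5 CPM in shNT, 16.0 and 14.5 in sh1Ybx1 and 17.4 and 17.6 in sh2Ybx1. Its controls were the tightest of all 9 genes, shNT replicate 4 included, and every knockdown library was above them. The mean rose from 11.4 ± 0.187 to 16.4 ± 1.46 CPM (log2 fold change 0.51, SE 0.117, edgeR adjusted p 0.0144). The pseudogene Mpc1-ps was at 0.32 on the log2 scale (SE 0.175, adjusted p 0.203), and 4930506C21Rik, on the other strand, overlaps Mpc1 and is counted as well, so some reads may be misassigned.

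Mpc2 (ENSMUSG00000026568, chr1:165460637-165481214, plus strand) was at 45.0, 55.5, 43.9 and 29.2 CPM in shNT, 69.9 and 61.5 in sh1Ybx1 and 94.2 and 97.6 in sh2Ybx1. All knockdown libraries were above the controls, and those of sh2Ybx1 above those of sh1Ybx1. The mean rose from 43.4 ± 10.8 to 80.8 ± 17.9 CPM (log2 fold change 0.87, SE 0.190, adjusted p 0.0126). In TPM the groups overlapped, since sh1Ybx1 replicate 2 at 70.8 TPM was under shNT replicate 2 at 79.7 TPM. Both calls depend on single libraries. Without sh1Ybx1 replicate 1, sh2Ybx1 replicate 1 or sh2Ybx1 replicate 2 the adjusted p was 0.0769, 0.0708 and 0.0810 for Mpc1 and 0.0592, 0.0530 and 0.0514 for Mpc2.

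Pdha1 (ENSMUSG00000031299, chrX:160122209-160138413, minus strand) encodes the alpha subunit of the first enzyme of the pyruvate dehydrogenase complex, the subunit that is switched off by phosphorylation. It was at 81.6, 84.6, 101 and 92.4 CPM in shNT, 44.0 and 56.8 in sh1Ybx1 and 48.0 and 51.1 in sh2Ybx1. No knockdown library reached the lowest control. The mean fell from 89.9 ± 8.67 to 50.0 ± 5.41 CPM (log2 fold change -0.85, SE 0.130, edgeR adjusted p 0.00417), so Pdha1 and its carrier moved in opposite directions.

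Each hairpin was also set against shNT alone. sh1Ybx1 against shNT called the same 5 genes lower, where 7.96% of all genes were called lower and 11.2% higher, and 0 higher. DESeq2 called 1 higher there, and Mpc1 and Mpc2 had unadjusted p of 0.0179 and 0.0286 in edgeR. sh2Ybx1 called the 5 lower and Mpc1 and Mpc2 higher, where 9.45% of genes were called lower, 10.4% higher and 19.9% in either direction. Log2 fold changes with sh1Ybx1 and sh2Ybx1 were -1.68 and -1.68 for Pkm, -1.92 and -1.69 for Ldha, -0.84 and -0.86 for Pdha1, 0.41 and 0.61 for Mpc1, and 0.60 and 1.14 for Mpc2. The 2 comparisons share their controls.

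Between the hairpins edgeR called 0 of 9 genes, where it called 0.524% of all genes, 0.0590% as lower in sh1Ybx1. The smallest unadjusted p was that of Mpc2 (log2 fold change of sh1Ybx1 against sh2Ybx1 -0.55, SE 0.267, p 0.0734, adjusted p 0.422), which passed without shNT replicate 4 (adjusted p 0.0383). With 2 libraries a hairpin, the single-hairpin calls were fragile. Leaving out sh1Ybx1 replicate 1 or replicate 2 left 0 and 1 genes called lower for sh1Ybx1, and leaving out either sh2Ybx1 library left 0 for sh2Ybx1, with the directions kept.

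**Figure D3:**
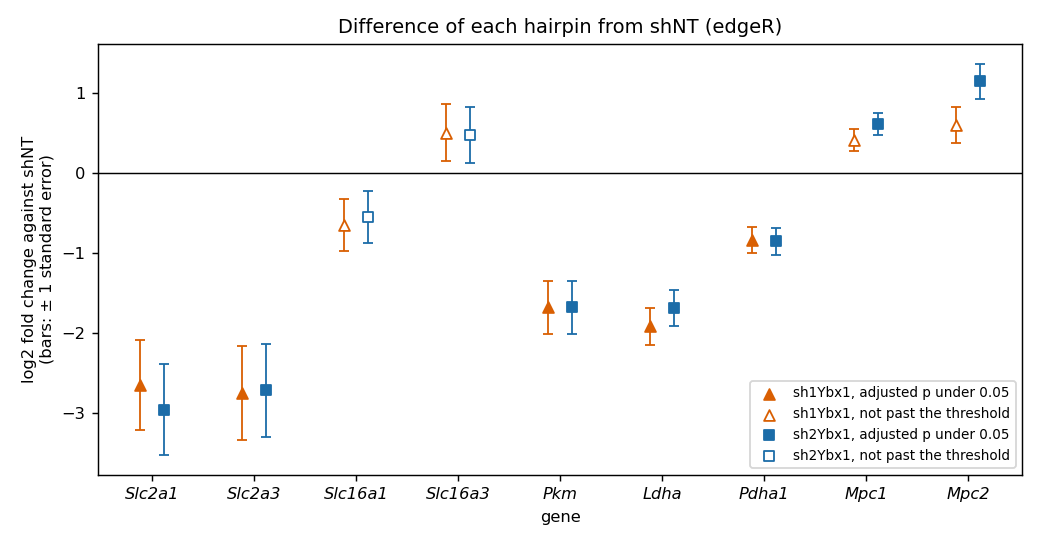
Log2 fold change of sh1Ybx1 (orange triangles) and sh2Ybx1 (blue squares) against shNT for each gene, with bars of 1 SE and filled symbols for adjusted p under 0.05. Both hairpins fall between -2.96 and -2.65 for the glucose carriers and lie above 0 for Mpc1 and Mpc2.

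The genes were set in order by TPM, which corrects for length. In shNT Pkm (1948 ± 476 TPM) and Ldha (1786 ± 187 TPM) led and overlapped each other. Slc2a3 (243 ± 113) and Slc2a1 (152 ± 63.9) came next and overlapped. Mpc2, Pdha1, Mpc1 and Slc16a1 followed with means of 57.5, 55.2, 51.5 and 39.1 TPM, neighbours overlapping, and the top of Mpc2 overlapped the bottom of Slc2a1. Slc16a3 was lowest of those above 0.

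In knockdown the order changed below the top pair. Pkm (613 ± 80.6 TPM) and Ldha (481 ± 68.7) still led, but Mpc2 (96.6 ± 23.4) and Mpc1 (75.0 ± 7.94) now ranked above Slc2a3 (37.0 ± 8.97), Pdha1 (25.6 ± 3.02), Slc16a1 (23.5 ± 2.30) and Slc2a1 (22.4 ± 11.1). The ranges of Pkm and Ldha, of Mpc2 and Mpc1, and of the last 3 of these overlapped, and the top of Slc2a1 overlapped the bottom of Slc2a3. The place of Slc2a1 differed by hairpin: its 35.5 and 27.8 TPM in sh1Ybx1 lay above Pdha1 (27.4 and 26.9) and Slc16a1 (20.8 and 24.9) there, while its 12.6 and 13.9 TPM in sh2Ybx1 lay below both. The lowest Mpc1 library lay above the highest Slc2a3 library, the reverse of shNT. The 10 genes together made up 0.370 to 0.532% of all TPM in shNT and 0.121 to 0.153% in knockdown. The Ldha to Pdha1 TPM ratio was 25.2 to 43.2 in shNT and 14.9 to 21.5 in knockdown, without overlap. It compares the RNA of single genes and does not measure the lactate or the oxidative branch. The ratios of Pkm to Ldha, Slc2a3 to Slc2a1, Mpc2 to Mpc1 and Slc16a1 to Slc16a3 overlapped between shNT and knockdown. None of these ratios was tested, and how often ratios of gene pairs separate over all genes is not given here.

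**Figure D4:**
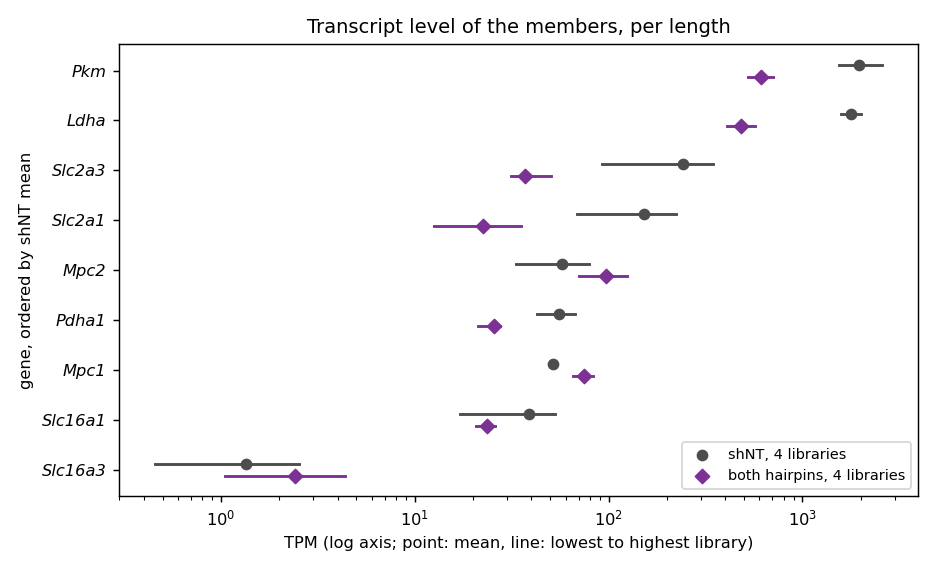
TPM on a log axis for the 9 genes above 0, ordered by shNT mean, with points at the mean and lines from the lowest to the highest of 4 libraries for shNT (grey circles) and both hairpins (purple diamonds). Slc2a3 and Slc2a1 drop below Mpc2 and Mpc1 in knockdown, while Pkm and Ldha stay on top.

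The transcripts of Slc2a3 also differed in makeup, by values that were not tested as shares. Its main form ENSMUST00000032476 made up 92.5 to 96.7% of the gene's TPM in shNT and 52.8 to 89.9% in knockdown, without overlap. That form fell by 2.94 on the log2(TPM + 1) scale (SE 0.395, limma adjusted p 0.0382). In Slc2a1 the form with the highest mean in shNT was ENSMUST00000030398 (65.4 TPM). In knockdown its mean of 5.88 TPM was below that of ENSMUST00000174372, annotated as a nonsense-mediated decay transcript (9.22 TPM, and 53.6 TPM in shNT). The share of ENSMUST00000030398 did not overlap either, at 35.8 to 51.1% in shNT and 15.8 to 35.0% in knockdown. How often such shares separate over all genes is not given here. The authors' deposited exon table, whose 581 bins all have adjusted p under 0.01, holds 2 bins of the 10 genes, both in Slc2a3. The bin at chr6:122732875-122733176 lies in the retained-intron transcript ENSMUST00000169979 and had counts of 76, 56, 16 and 104 in shNT, 30 and 32 in sh1Ybx1 and 34 and 35 in sh2Ybx1. Set against the gene's own counts these were 1.45 to 3.14 per 1000 in shNT and 8.38 to 10.7 per 1000 in knockdown, and the authors' deposited table gives a log2 change in use of 2.11 (adjusted p 2.62e-15). The bin's own counts overlapped between groups while those of the gene fell.

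The bin at chr6:122797802-122797879, far upstream on the minus strand, had counts of 38, 62, 57 and 18 in shNT, 27 and 28 in sh1Ybx1 and 36 and 32 in sh2Ybx1. That is 0.544 to 5.15 per 1000 counts of the gene in shNT and 7.55 to 10.2 in knockdown (authors' deposited table, log2 change in use 2.70, adjusted p 0.00410). These counts too overlapped between groups. The deposited table of the authors gave gene-level log2 fold changes of -2.60 for Slc2a1, -2.52 for Slc2a3, -1.63 for Pkm, -1.79 for Ldha and 0.90 for Mpc2.

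Promoters were searched for ACGTG and GCGTG, the core letters to which hypoxia-inducible factors bind, and for CACGTG, the E-box bound by Myc and related factors, on both strands. A CACGTG holds ACGTG on either strand. Windows from RefSeq (GRCm38.p6) span 250 bases before to 50 after a gene's start, and 9 of the 10 genes have at least 1, with 12 windows in all. Slc2a3 has none. ACGTG or GCGTG occurred in 10 of the 12 windows, and in 43.8% of all 32851 windows in the table. CACGTG occurred in 2, in Slc16a1 and Ldha, against 7.15% of all windows.

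The 250 bases before the start are printed for Ldha and Pdha1, which fell, and Slc16a1, which did not pass, to set called genes and an uncalled gene that hold such letters side by side. They were chosen after their motifs were seen, among windows with no annotated exon of their own gene in that stretch. For Ldha it is the first of its windows, with 5 core motifs there. The second, with 1, is not printed, nor are the Ldhb window (1) and the second of Mpc1 (0). They lie at chr7:46845554-46845803 (plus strand), chrX:160138431-160138680 (minus strand) and chr3:104638414-104638663 (plus strand), and capitals mark the motifs.
Ldha: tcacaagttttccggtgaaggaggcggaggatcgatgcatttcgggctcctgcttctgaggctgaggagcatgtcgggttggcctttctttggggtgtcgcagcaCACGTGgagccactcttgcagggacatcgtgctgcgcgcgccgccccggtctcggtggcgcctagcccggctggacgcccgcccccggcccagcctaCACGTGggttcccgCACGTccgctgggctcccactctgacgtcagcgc
Pdha1: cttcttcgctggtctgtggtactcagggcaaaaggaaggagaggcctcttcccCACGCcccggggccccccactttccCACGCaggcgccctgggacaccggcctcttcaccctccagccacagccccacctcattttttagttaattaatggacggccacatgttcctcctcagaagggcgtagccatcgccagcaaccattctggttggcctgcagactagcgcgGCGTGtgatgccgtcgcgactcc
Slc16a1: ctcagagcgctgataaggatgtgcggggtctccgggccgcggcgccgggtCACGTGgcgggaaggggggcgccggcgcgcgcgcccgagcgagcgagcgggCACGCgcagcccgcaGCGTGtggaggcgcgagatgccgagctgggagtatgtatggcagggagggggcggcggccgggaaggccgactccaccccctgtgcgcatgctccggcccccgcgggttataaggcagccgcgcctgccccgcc
Over its whole window Ldha held ACGTG at 5 positions, counting both strands, and Slc16a1 at 3, while Pdha1 held GCGTG at 4 and no ACGTG. The first Pkm window held neither, while the second held ACGTG at 2 positions. Mpc1 and Mpc2, which rose, held GCGTG at 1 position each. These matches describe the letters in the windows only.

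Most genes of the glycolytic steps above Pkm fell alongside it. Of 16 tested genes from hexokinase to enolase, 12 were called lower and 0 higher with both hairpins (edgeR), with a median log2 fold change of -1.31. Of all 13552 tested genes 14.2% were called lower and 14.8% higher in that comparison. The liver-type phosphofructokinase Pfkl fell by 2.34 on the log2 scale (SE 0.219, adjusted p 0.00124), from 446 ± 133 to 88.7 ± 11.2 CPM. The triose phosphate isomerase Tpi1 fell by 2.01 (SE 0.194, adjusted p 0.00124). Hk3, Pfkm, Aldoc and Pgam2 did not pass, and Aldoc and Hk3 had values above 0 (1.06 and 0.54).

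Around pyruvate dehydrogenase, 6 of 9 tested genes were lower and 0 higher (median -0.70), against 14.2% and 14.8% of all tested genes. The largest change was in Pdk1, a kinase that switches the complex off, at 143, 106, 91.7 and 311 CPM in shNT, 19.2 and 21.3 in sh1Ybx1 and 18.5 and 18.4 in sh2Ybx1 (log2 fold change -3.08, SE 0.394, adjusted p 0.00261). Every knockdown library was far below every control. The kinase Pdk3 (-0.84, SE 0.139), the phosphatase Pdp2 (-0.82, SE 0.174) and the phosphatase regulator Pdpr (-0.70, SE 0.107) also fell, so genes of both the inhibiting and the activating arm were lower. The Pdp2 call was lost without sh1Ybx1 replicate 1 or 2 or sh2Ybx1 replicate 1 (adjusted p up to 0.0625), and with limma on TPM or FPKM (adjusted p up to 0.338). The other subunit of the same enzyme, Pdhb, was at -0.23 (SE 0.184, adjusted p 0.377).

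Other enzymes listed around pyruvate and lactate, not all of which act on pyruvate itself, gave 4 lower and 1 higher of 9. Of all tested genes 14.2% were lower and 14.8% higher. Lower were pyruvate carboxylase Pcx (-1.53, SE 0.178), the mitochondrial phosphoenolpyruvate carboxykinase Pck2 (-2.03, SE 0.297), the mitochondrial malic enzyme Me2 (-1.25, SE 0.183) and the alanine aminotransferase Gpt2 (-2.21, SE 0.356), with adjusted p from 0.00189 to 0.00492. The Gpt2 call was lost with limma on TPM or FPKM (adjusted p up to 0.0868). Higher was Hagh, a glyoxalase that releases lactate (0.47, SE 0.104, adjusted p 0.0135).

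Other sugar and monocarboxylate carriers and their partners were mixed, with 2 lower and 4 higher of 12, against 14.2% and 14.8% of all tested genes. Bsg, the chaperone that brings Slc16a1 and Slc16a3 to the membrane, fell by 1.23 (SE 0.307, adjusted p 0.0195). Txnip, which promotes removal of glucose carriers from the membrane, was at 350, 307, 421 and 89.5 CPM in shNT and 83.1 to 93.5 CPM in knockdown (log2 fold change -1.72, SE 0.406, adjusted p 0.0163). Its lowest control, shNT replicate 4, lay within the knockdown values. The call was lost without any of the 4 knockdown libraries in turn, with adjusted p up to 0.0746. Slc2a6 rose by 1.53 (SE 0.350, adjusted p 0.0148), and this was lost without replicate 1 of sh1Ybx1 or of sh2Ybx1 (adjusted p up to 0.0592). Slc16a4 (1.58, SE 0.271, adjusted p 0.00604) and Slc16a8 (1.79, SE 0.405, adjusted p 0.0142) rose from low levels of 1.90 and 0.623 CPM, and Slc16a8 did not pass without sh1Ybx1 replicate 1 or either sh2Ybx1 library (adjusted p up to 0.0592). With limma on TPM or FPKM, Slc16a4 had log2 changes of only 0.58 to 1.01 and did not pass (adjusted p up to 0.287), and neither did Slc16a8 (0.24 to 1.18, adjusted p up to 0.609) or Txnip (-1.45 to -1.24, adjusted p up to 0.212).

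**Figure D5:**
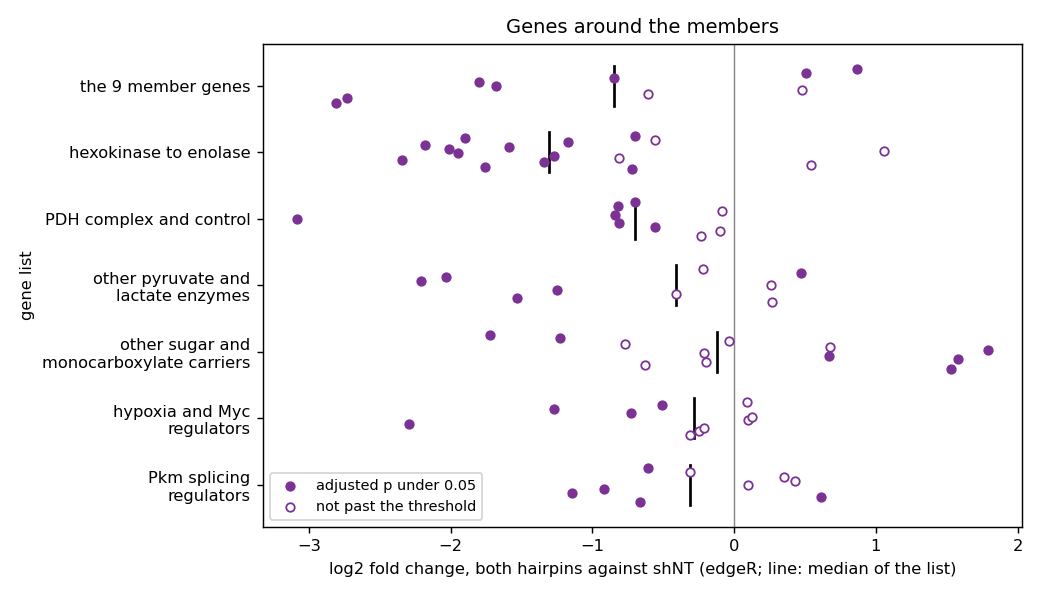
Log2 fold change of both hairpins against shNT for the 9 member genes and each tested gene of 6 lists, with filled points for adjusted p under 0.05 and a black line at the median. The list from hexokinase to enolase has its median at -1.31, and the carriers reach from -1.72 to 1.79.

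Of the regulators known to act on these genes, 4 of 10 in the hypoxia and Myc list fell and 0 rose (median -0.28). Over all tested genes 14.2% were called lower and 14.8% higher. Egln1, the oxygen-sensing hydroxylase that marks hypoxia-inducible factors for decay, was at 333, 224, 152 and 775 CPM in shNT and 62.2 to 91.2 CPM in knockdown (-2.29, SE 0.472, adjusted p 0.0108). Mycn (-1.27, SE 0.251), Myc (-0.73, SE 0.145) and its partner Max (-0.51, SE 0.121) fell, with adjusted p of 0.00932, 0.00956 and 0.0164, and Hif1a was at -0.31 (SE 0.125, adjusted p 0.0919). Each of these 4 calls was lost without sh1Ybx1 replicate 1, those of Egln1, Myc and Max also without sh2Ybx1 replicate 1, and that of Max without either of the remaining knockdown libraries (adjusted p up to 0.0575 for Egln1, 0.0514 for Mycn, 0.0569 for Myc and 0.0814 for Max). Myc and Max also missed the threshold with limma on TPM or FPKM (adjusted p up to 0.0956 and 0.12).

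Among 9 proteins known to act on the choice between the Pkm exons, 4 were lower and 1 higher (median -0.31). The shares over all tested genes were 14.2% and 14.8%. The polypyrimidine tract binding genes Ptbp1 and Ptbp3 fell by 0.66 (SE 0.146, adjusted p 0.0131) and 1.14 (SE 0.149, adjusted p 0.00277). Hnrnpa1, which with Ptbp1 blocks the M1 exon, fell from 1163 ± 73.0 to 623 ± 122 CPM (-0.92, SE 0.125, adjusted p 0.00308). Mbnl1 was also lower (-0.61, SE 0.125, adjusted p 0.0108), and Ptbp2, the neuronal relative, was higher (0.61, SE 0.171, adjusted p 0.0311). The calls of Ptbp1 and Mbnl1 were lost without replicate 1 of either hairpin, and that of Mbnl1 also without sh1Ybx1 replicate 2 (adjusted p up to 0.0723 and 0.0657). Neither passed with limma on TPM or FPKM (adjusted p up to 0.263 for Ptbp1 and 0.193 for Mbnl1).

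The genes whose pattern over the 8 libraries was most like that of Pkm, by the root mean square difference of centred log2(CPM + 1) over 8869 genes with a mean CPM of 10 or more, were Grhpr (0.0934), Map2k1 (0.109) and Alkbh5 (0.144), where the median gene was at 0.878. For Ldha they were Fads2 (0.122), Cpox (0.126) and Grhpr (0.186), against a median of 0.920. Grhpr, the glyoxylate and hydroxypyruvate reductase, was in both sets.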

How the data were processed

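Poly(A) RNA of 8 libraries was sequenced, per the labels' protocols. The authors deposited raw read counts per gene, with their own log2 fold change and adjusted p-value, TPM and FPKM per gene and transcript, a table of splicing events with percent spliced in as a fraction and an unadjusted p-value, and counts per exon bin with a log2 change in use. STAR, featureCounts, limma and RSEM, and the builds GRCm38 and mm9, are named without roles per the submitters' processing notes. Coordinates were read as GRCm38, since 70 of 71 splicing events of these genes lie within the GRCm38 gene. The treatment of reads that map to several places is not stated there.

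Counts were tested with edgeR 4.0.16 in R 4.3.3 (quasi-likelihood, TMM, filterByExpr, 3 group means over all 8 libraries, Benjamini-Hochberg adjustment over 13552 genes). The contrasts were both hairpins, each hairpin against shNT, and hairpin against hairpin. Each SE was derived as the change divided by the root of the F statistic and is approximate. Transcripts with a mean TPM of at least 1 were tested with limma 3.58.1 on log2(TPM + 1). That scale understates changes of low transcripts. The steps were tested on simulated data. Precision is limited by 2 libraries a hairpin, and total counts were 22779437 to 37549926.

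The genes, the 6 pathway lists and the marker lists were chosen with earlier results of these data known. Besides the 10 genes and Ybx1, up to 4 genes a list were named by smallest adjusted p (2 for hexokinase to enolase), with the 3 genes most like each of Pkm and Ldha. Others named in the text (Hk3, Pfkm, Aldoc, Pgam2, Pdhb, Hagh, Bsg, Hif1a and Ptbp2) were chosen after their values were seen. Alternatives were DESeq2 1.42.0, its size factors, no filter, a mean TPM minimum of 5, limma on TPM or FPKM, replicate blocks and each library left out.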

Additional observations from a re-analysis of the deposited data

Results flagged for a closer look

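The share of Pkm TPM in the M2-containing transcript Pkm-201 was 71.8% in shNT replicate 4, against 81.4 to 82.9% in the other 3 shNT libraries. The gap to the nearest of them divided by the range of the group was 0.864, past Dixon's critical value for 4 samples. Chance flags about 1 in 20 for each group, and 10 groups were looked at, so a single flag can arise by chance. The same library was also the highest control for Slc2a1, Slc2a3, Pkm and Ldha and the lowest for Slc16a1, Slc16a3 and Mpc2. Without it the difference in share between knockdown and shNT was -10.8 percentage points (exact permutation test, two-sided p 0.0571, n = 3 against 4).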

How the results depend on the processing

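The calls of Slc2a1, Pkm, Ldha and Pdha1 for both hairpins together held under all 17 alternatives, and no log2 fold change of a member for both hairpins changed sign. Slc2a3 missed the threshold with limma on log2(FPKM + 1) (adjusted p 0.0523), and Mpc2 with limma on TPM or FPKM (adjusted p 0.167, 0.174 and 0.105). Members called higher were 0 to 2 with a library left out, and 1 with limma on log2(TPM + 1), log2(TPM + 0.1) or log2(FPKM + 1). For sh1Ybx1, leaving out a library gave 0 to 6 members lower and 0 to 2 higher, DESeq2 gave 1 higher, and limma gave 2, 2 and 1 lower on those 3 scales. For sh2Ybx1, leaving out a library gave 0 to 6 lower and 0 to 2 higher, and limma gave 3, 3 and 1 lower and 1 higher on each. In fits that leave out a hairpin library, the lone library left is assumed to vary like the others. Between hairpins 0 to 1 members were called lower with a library left out. Over the 6 lists, 32 genes were lower and 6 higher in all. This became 18 to 38 and 1 to 6 with a library left out, 19, 19 and 13 lower and 1 higher with limma, and 3 higher with a mean TPM of 5 or more. Among them Pfkl, Pdk3, Ptbp3, Mycn and Egln1 missed the threshold on 1 of the 3 limma scales, log2(FPKM + 1) (adjusted p 0.0525, 0.0737, 0.0541, 0.0839 and 0.0671). Genes called over the whole table numbered 3923, from 1273 to 6795 with a library left out (6795 without shNT replicate 4), 2212 at the TPM minimum of 5 and 553, 591 and 437 with limma, where fewer genes are tested or the scale differs. Pkm transcripts called lower were 0 to 1 with a library left out. The cause of these moves was not tested.

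Same-numbered libraries did not deviate together (correlations of -0.012 to 0.197 by title number and -0.197 to 0.157 by description number), and the numbers in titles and descriptions differ for sh2Ybx1, so a shared number is not taken as pairing. With a replicate block by title number, 6653 genes were called, 2 members were higher for sh1Ybx1, 1 was lower between hairpins and 0 Pkm transcripts were lower (Pkm-201 adjusted p 0.30). With a block by description number, 6997 genes were called and 1 member was higher for sh1Ybx1. Slc16a1 passed under either block (edgeR adjusted p 6.27e-04 and 9.94e-04). By either numbering shNT replicate 4 shares its number with no other library, and by title number neither does shNT replicate 3. A block that holds a single library takes that library out of the contrasts. The block fits are therefore no separate check from leaving out shNT replicate 4, which gave 6795 genes called and -0.84 for Slc16a1.

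Between the hairpins, small differences changed sign: Slc2a1 to -0.18 under the block by description number, Slc2a3 to values up to 0.11, Slc16a1 from -0.23 to 0.067, Slc16a3 from -0.13 to 0.23 (-0.20 under that block), Pkm up to 0.16 and Pdha1 from -0.17 to 0.20 with a library left out, and Pkm to 0.001 with limma on TPM at either pseudocount. Depth does not limit Pkm or Ldha, but Slc16a3 at under 10 CPM rests on few reads.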
